A study of Oryctolagus cuniculus with 20 samples.

Results

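Expression in tricuspid valves of rabbits given serotonin, pergolide or dexfenfluramine was set, as 1 pooled treated group, against that in valves of untreated rabbits, and the genes that moved one way under all 3 agents are described. All 20 of the 20 valves of the series entered, chosen by their group alone: 15 treated valves, 5 for each agent, and 5 Control valves, with equal weight for each agent. The animals were female New Zealand white rabbits, 8 weeks old at the start, kept for 16 weeks on drinking water. Per the sample labels the daily dose in the water, in mg/kg, was 80 of serotonin, 0.5 of pergolide or 20 of dexfenfluramine; Control rabbits drank water without an agent. RNA left after depletion of ribosomal RNA was sequenced from whole valves, so each value is a mean over all cells that a dissected leaflet holds.

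Valve leaflets are built from collagen, proteoglycan and elastic layers that valvular interstitial cells, the fibroblast-like cells of the leaflet, lay down and renew. At its hinge the tricuspid leaflet meets heart muscle and fatty tissue. Serotonin acts on these cells through G protein-coupled receptors that raise growth factor signalling and matrix synthesis. Pergolide, an ergot-derived dopamine agonist, also binds serotonin receptors, while dexfenfluramine, an appetite suppressant, releases serotonin and is turned into a metabolite that activates them.

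Reads counted on genes ranged from 3247091 in Dexfenfluramine 3 to 5921025 in Pergolide 2. Levels are given as CPM, the counts of a gene relative to the size of its library, scaled between valves by trimmed mean of M-values factors, and fold changes as log2 with their standard error. Gene names come from the symbol column of the study's own table of changed genes, which names 3521 of the 23669 counted genes and 3456 of the 8683 that had enough reads to test. A gene has a name here because the study listed it as changed in these same valves, so the direction of a named gene or of a list of named genes is not independent evidence. The CPM of different genes are not corrected for gene length and are compared only between valves.

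Markers of the labelled tissue were present in every valve. Of 16 valvular interstitial cell markers looked for, 10 had a symbol and all 10 had reads in each valve. Their summed level was 7803, 6671, 8226, 5659 and 6141 CPM in Control 1 to Control 5, 8227, 6787, 8616, 8244 and 8019.8 CPM with serotonin, 8347, 9143, 7987, 9873 and 11567 CPM with pergolide and 9370.2, 10303, 12266, 8446 and 9429 CPM with dexfenfluramine. The most abundant of them was VIM, the intermediate filament vimentin, with 34.1% of the sum.

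Heart muscle RNA was present as well, at very unequal levels. Of 21 cardiomyocyte markers, 12 had a symbol, and none of the 12 was at 0 in any valve. Their summed level was 144321, 107927, 50104, 153206 and 98487 CPM in Control 1 to Control 5 and 54122, 105737, 61159, 98555 and 64629.7 CPM in Serotonin 1 to Serotonin 5. It was 83361, 93193, 93779, 53468 and 48763 CPM in the pergolide valves and 71949.8, 53217, 12692, 61441 and 72188 CPM in the dexfenfluramine valves. TTN, the giant sarcomere protein titin, made up 70.0% of the sum. Group means were 110809 ± 41128 CPM (SD, n = 5) for Control, 76841 ± 23546 for serotonin, 74513 ± 21819.5 for pergolide and 54298 ± 24571 for dexfenfluramine, and the treated and control ranges overlapped. In whole valves, fewer cells of a type and less RNA per cell cannot be told apart.

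Fat cell RNA also varied. Of 16 adipocyte markers, 5 had a symbol (ADIPOQ, CIDEA, LEP, DGAT2 and THRSP), and LEP and THRSP were at 0 in some valve. Their sum was 59.4, 38.4, 32.9, 91.3 and 37.2 CPM in Control 1 to Control 5, 165, 42, 104, 86.2 and 84.4 CPM with serotonin, 224, 223, 136, 75.1 and 141 CPM with pergolide and 76.9, 115, 5.03, 44.3 and 126 CPM with dexfenfluramine. ADIPOQ, the hormone adiponectin, made up 52.2% of it. The control and treated ranges overlapped, with the highest sums in pergolide valves and the lowest in Dexfenfluramine 3.

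The remaining marker lists rested on few named genes. Endothelial markers (2 of 18 with a symbol, PECAM1 at 78.1% of the sum) had mean sums, in CPM, of 266 in control, 296 in serotonin, 165 in pergolide and 214 in dexfenfluramine valves. Macrophage and leukocyte markers (2 of 20, C1QA, a complement component, at 52.7%) had mean CPM sums of 16.2 in control, 21.3 in serotonin, 32.8 in pergolide and 28.7 in dexfenfluramine valves. Smooth muscle markers (3 of 10, DES at 89.9%) reached mean sums, again in CPM, of 427 in control, 370.4 in serotonin, 414 in pergolide and 315 in dexfenfluramine valves. DES is also counted among the sarcomere and muscle structure genes below, so this sum does not stand for smooth muscle alone. In each of these marker lists the ranges of single control and treated valves overlapped. For the Schwann cell and melanocyte markers (4 of 13, MITF at 37.8%) the mean CPM sums were 129 in control, 111 in serotonin, 99 in pergolide and 90.1 in dexfenfluramine valves. HAPLN1, which ties hyaluronan to proteoglycan and was the 1 of 15 chondrocyte markers with a symbol, had mean CPM of 39.1 in control, 50.5 in serotonin, 52.9 in pergolide and 78.7 in dexfenfluramine valves. Again the ranges overlapped. None of the 12 erythroid markers had a symbol.

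Libraries of 2 valves stood apart from the rest of their group. The most abundant gene, ENSOCUG00000029084, which has no symbol, took 28.5% of the counts of Control 3 and 40.4% to 48.1% of the other Control valves. In Control 3 the cardiomyocyte sum was also the lowest of its group, and 13 of the 15 treated valves exceeded it. Dexfenfluramine 3 had 20.3% of its counts on that gene, the largest scaling factor (1.71), and the lowest cardiomyocyte and adipocyte sums of all valves. Results are therefore given with all 20 valves. The main counts, and whether the calls of named genes held, are also given without these libraries.

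**Figure D1:**
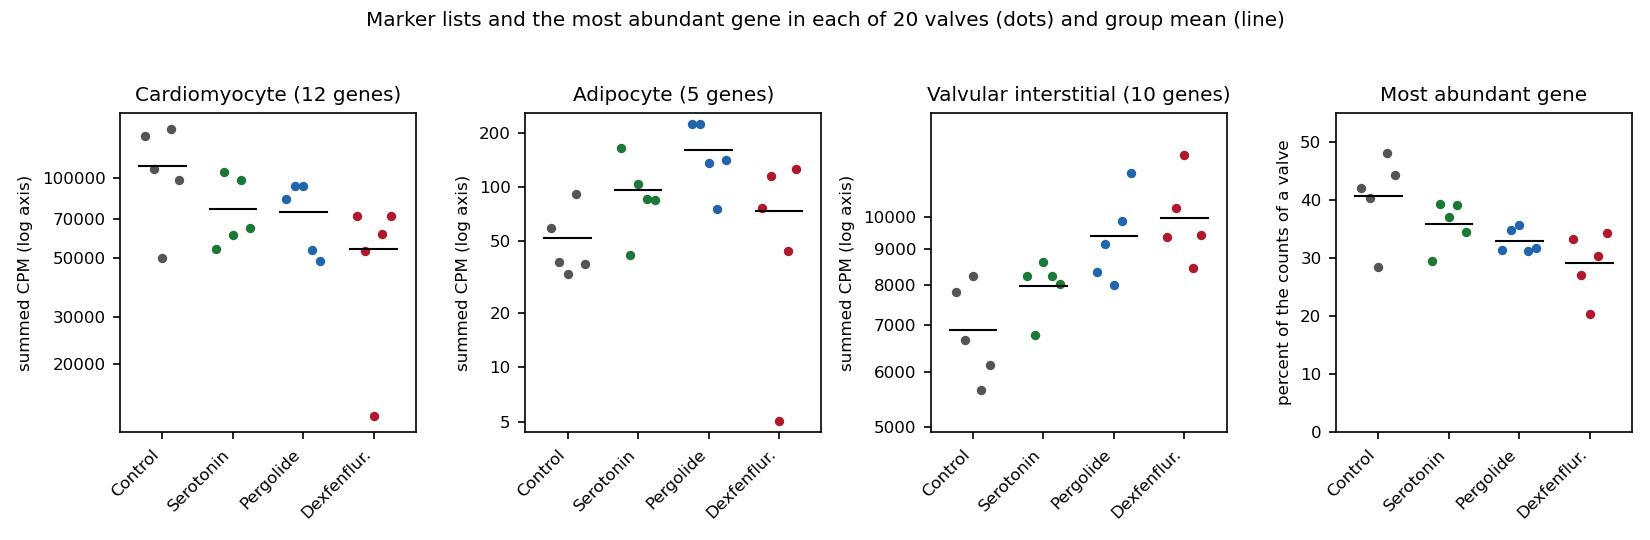
Summed CPM of cardiomyocyte, adipocyte and valvular interstitial cell markers (log axes) and the percent of counts on the most abundant gene in each of the 20 valves, by group, with bars at group means. Control 3 has 50104 CPM of cardiomyocyte markers and Dexfenfluramine 3 12692 CPM, each the lowest of its group.

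The first question was how many genes differed between treated and untreated valves when the 3 agents carry equal weight. A gene was called when its pooled contrast, tested with edgeR, had a Benjamini-Hochberg adjusted p under 0.05. Of the 8683 tested genes, 1552 (17.9%) were called: 717 rose (8.26%) and 835 fell (9.62%). The median pooled log2 fold change of all tested genes was 0.01, and -0.02 over those with a symbol. Among the called genes the median size of the change was 0.46.

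A call in the pooled contrast did not require that every agent moved the gene. Of the called genes, 1129 (13.0% of those tested) had 1 sign in all 3 treatments. The other 423 had the opposite sign under serotonin, 94 of them with an unadjusted p under 0.05 there, and none had it under pergolide or dexfenfluramine. A test for any difference between the 3 treatments, which uses no Control valve, called 2518 of the 8683 genes (29.0%), 921 of them among the 1552. HNRNPA2B1, an RNA-binding protein of splicing complexes, shows such a gene. It had 296, 239.7, 269, 268 and 241 CPM in Control 1 to Control 5, 271, 308, 234, 258 and 279 CPM with serotonin, 114, 129, 143, 139.8 and 131 CPM with pergolide and 139, 140.4, 131, 146 and 146 CPM with dexfenfluramine. Pergolide and dexfenfluramine valves lay well below the serotonin and Control valves. Its pooled change of -0.62 (standard error 0.07, adjusted p = 6.19e-06) joined a fall by 1.00 with pergolide and by 0.90 with dexfenfluramine to 0.04 with serotonin.

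The pooled count depended on which valves entered. Leaving out 1 valve at a time gave from 982 calls (without Control 1) to 1945 (without Control 3), and 729 of the 1552 genes were called in all 20 of these fits. Without both Control 3 and Dexfenfluramine 3 there were 1969 calls, 828 up and 1141 down. With the 15 treated valves fitted as a single group, so that differences between agents add to the spread, 313 genes were called.

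Genes that moved one way were defined by 3 conditions: a call in the pooled contrast, 1 sign in all treatments, and an unadjusted p under 0.05 in each treatment against Control. They numbered 290 (3.34% of tested genes), 173 up (1.99%) and 117 down (1.35%), and 262 of them had a symbol. The 3 treatment contrasts share the same 5 Control valves, so an unusual Control valve moves all of them together. Among the rises the median log2 fold change was 0.55 pooled, 0.44 under serotonin, 0.61 under pergolide and 0.59 under dexfenfluramine. The falls had medians of -0.54 pooled, -0.44, -0.58 and -0.62. Pooled values of single genes ran from -2.76 to 2.88. That rule favours genes on which the agents agree, and 38 of the 290 also differed between the treatments, against 921 of the 1552. The balance of rises and falls depended on the settings and valves: 59.7% of the 290 rose. With another scaling alone it was 51.2% (RLE factors) and 54.5% (upper-quartile factors), and with library sizes without the most abundant gene, where 8678 genes were tested, 40.4% (124 up, 183 down). DESeq2, which changes the scaling and the test, gave 48.1% (139 up, 150 down), and the edgeR fit with unchanged scaling but without Control 5 gave 47.7%. With only genes of at least 10 counts in every valve, 37.2% rose (97 up, 164 down).

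The number also moved with the Control valves. Without Control 3, 580 genes moved one way, 242 of them among the 290; without Control 4 there were 198. Leaving out both Control 3 and Dexfenfluramine 3 gave 648 genes (268 up, 380 down), 241 of them shared with the 290. With 2 svaseq variables in the fit 200 genes moved one way, and 133 of the 290 were among them. In every one of the 20 fits without 1 valve, 82 of the 290 moved one way. The strictest form, the largest of the 3 treatment p-values adjusted over all genes, called 0 genes in edgeR, with 301 under an unadjusted 0.05, and 0 in DESeq2 and limma-voom as well.

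**Figure D2:**
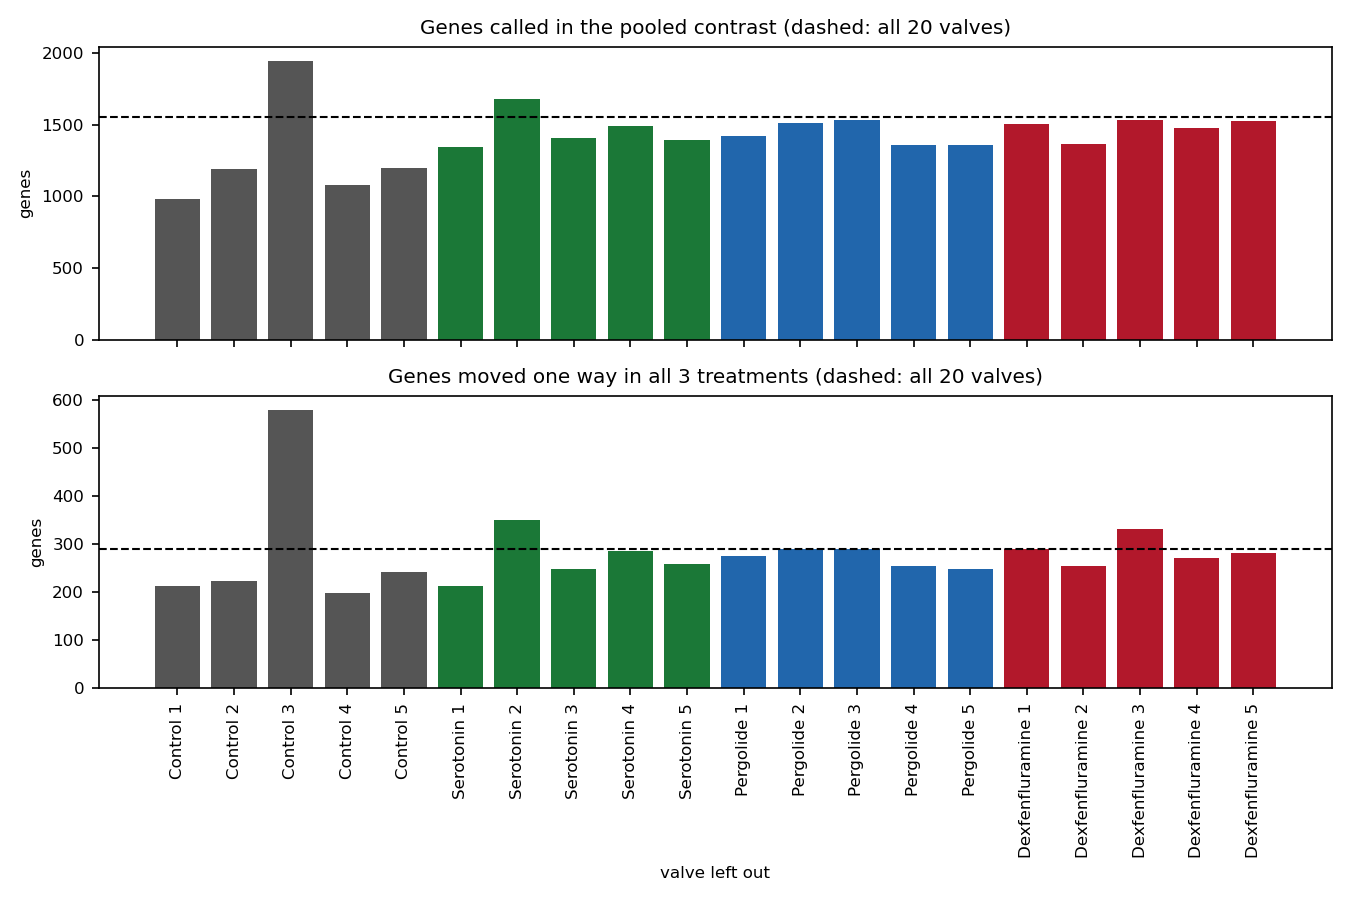
Number of genes called in the pooled contrast and number moved one way in all 3 treatments when the named valve is left out, with lines at the counts of all 20 valves (1552 and 290). The fit without Control 3 has 1945 and 580.

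Requiring an adjusted p under 0.05 in each of the 3 treatments left 13 genes (0.150% of those tested), 11 up and 2 down. They were chosen after their values were seen, except those that the naming rule also gives. All 13 also met this condition without Control 3 and with both libraries left out, and 12 without Dexfenfluramine 3, but the count itself was 73 without Control 3, 25 without Dexfenfluramine 3 and 149 without both. In the same edgeR fits it was 0 without Control 2, Control 5 or Serotonin 1, 1 without Control 4, 2 without Serotonin 2, 3 without Serotonin 4, 6 without Serotonin 5 and 8 without Dexfenfluramine 2; the unadjusted rule, p under 0.05 in each treatment, gave 301 genes with all valves. Of the 13, 6 met the condition with library sizes without the most abundant gene, 8 with RLE factors, 8 with at least 10 counts in every valve, 10 with upper-quartile factors, 10 with svaseq, 12 in limma-voom and 13 in DESeq2. A second description was by separation alone: in 23 genes (0.265%) all 15 treated valves lay on 1 side of all 5 Control valves, 15 higher (0.173%) and 8 lower (0.0921%). All 23 were called in the pooled contrast, 21 moved one way, and 7 were among the 13. Separated genes numbered 153 without Control 3, 47 without Control 1, 43 without Serotonin 2, 37 without Control 2 or Control 4 and 35 without Control 5, and 156 without Control 3 and Dexfenfluramine 3. Leaving aside HTR4 and MAOA, neither of which was called, 95 genes are named with a pooled result. Of these, 92 were called in the pooled contrast, and 66 stayed called in every fit without 1 valve. All 92 were also called with Control 3 and Dexfenfluramine 3 both left out. That setting, chosen after seeing the data, raised all pooled calls from 1552 to 1969. The call of each of the 92 held in all 20 fits that leave out 1 valve unless the valve is named.

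The first of the 13 described here have roles in the matrix. SVEP1 (ENSOCUG00000016227), a large adhesion protein of the extracellular matrix, had 54.7, 50.0, 60.3, 56.4 and 55.1 CPM in Control 1 to Control 5 and 78.8, 71.1, 106, 83.8 and 91.7 CPM with serotonin. It had 94.6, 109, 81.8, 91.7 and 98.7 CPM with pergolide and 71.3, 113, 70.6, 75.5 and 77.5 CPM with dexfenfluramine. Every treated valve lay above every Control valve, Control 3 included. Pooled, SVEP1 rose by 0.66 (standard error 0.11, adjusted p = 0.000461) on the log2 scale, from 0.64 under serotonin, 0.78 under pergolide and 0.56 under dexfenfluramine. COL14A1 (ENSOCUG00000015234), a collagen that sits on the surface of fibrils, had 515, 597, 643, 596 and 701 CPM in Control 1 to Control 5, and treated valves ran from 623 through a median of 1006 to 1262 CPM. In 14 of 15 treated valves the level was above the highest Control valve. It rose by 0.72 (standard error 0.13, adjusted p = 0.000792), with 0.75 under serotonin, 0.78 under pergolide and 0.63 under dexfenfluramine.

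FBLN7 (ENSOCUG00000002898), a fibulin of the matrix, had 28.1, 16.8, 28.4, 22 and 20.0 CPM in Control 1 to Control 5, and 43.5, 26.9, 46.4, 49.5 and 45.1 CPM with serotonin. Pergolide valves had 48, 48.1, 67.3, 55.8 and 68.4 CPM and dexfenfluramine valves 44.2, 44.7, 33.2, 26.4 and 33.6 CPM. Serotonin 2 and Dexfenfluramine 4 reached into the Control range, and the mean was highest in pergolide valves. Pooled it changed by 0.95 (standard error 0.16, adjusted p = 0.000536), as 0.88 under serotonin, 1.32 under pergolide and 0.66 under dexfenfluramine, and the agents differed (adjusted p = 0.0155). ITIH5 (ENSOCUG00000016945), an inter-alpha-trypsin inhibitor heavy chain that binds hyaluronan-rich matrix, had 40.3, 67.1, 67.5, 47.9 and 56.3 CPM in Control valves and 64.2 to 122 CPM (median 98.5) in treated ones. There 13 of 15 exceeded every Control valve, and the rise was 0.76 (standard error 0.14, adjusted p = 0.000981), with 0.86, 0.91 and 0.52 for serotonin, pergolide and dexfenfluramine.

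MGP (ENSOCUG00000016964), matrix Gla protein, a secreted inhibitor of calcification, had 815, 419.8, 508, 474 and 498 CPM in Control 1 to Control 5 and 911, 944, 882, 1103 and 809 CPM with serotonin. The pergolide valves had 905, 862, 910.3, 905 and 885 CPM and the dexfenfluramine valves 756, 956, 1264, 616 and 755 CPM. Control 1 stood far above the other Control valves and inside the treated range, while 11 of 15 treated valves exceeded it. MGP rose by 0.73 (standard error 0.15, adjusted p = 0.00239), with 0.78 under serotonin, 0.72 under pergolide and 0.68 under dexfenfluramine. CPED1 (ENSOCUG00000005778) was separated, at 61.9, 65.5, 81.1, 57 and 71.2 CPM in Control valves against 87.2 to 138 CPM (median 99.5) in treated valves, a change of 0.68 (standard error 0.12, adjusted p = 0.000767).

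Of the remaining genes, CD164 (ENSOCUG00000029127), a sialomucin of the cell surface and endosomes, had the smallest adjusted p of the 13. Its values were 91.5, 89.5, 113, 98.4 and 98.5 CPM in Control 1 to Control 5 and 126, 118, 114, 118 and 122 CPM with serotonin. They were 142, 152, 137, 136 and 142 CPM with pergolide and 136, 143, 132, 128 and 135 CPM with dexfenfluramine. All treated valves were higher than all Control valves, by a small margin for serotonin. The change was 0.42 (standard error 0.06, adjusted p = 8.77e-05), from 0.28 under serotonin, 0.53 under pergolide and 0.46 under dexfenfluramine. CD63 (ENSOCUG00000024081), a tetraspanin of late endosomes and secreted vesicles, had 109, 97.4, 99.4, 107 and 95.3 CPM in Control valves and ran from 112 through a median of 131 to 148 CPM in treated ones, again without overlap. It rose by 0.36 (standard error 0.06, adjusted p = 0.000556), with 0.46 under serotonin, 0.35 under pergolide and 0.28 under dexfenfluramine. Of the 2 genes that fell, one was ATP6V1F (ENSOCUG00000014136), a subunit of the proton pump that acidifies endosomes and lysosomes. Control valves had 17.6, 17.6, 14.7, 15.3 and 13.6 CPM, and treated valves ran from 5.81 through a median of 9.63 to 12 CPM. No treated valve reached the lowest Control valve, and the gene fell by 0.81 (standard error 0.14, adjusted p = 0.000562), with -0.74 under serotonin, -0.68 under pergolide and -1.03 under dexfenfluramine.

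NR1D2 (ENSOCUG00000009329), the nuclear receptor REV-ERB beta, a repressor of the circadian clock, had 102, 234, 269, 142 and 246 CPM in Control 1 to Control 5 and 404, 288, 398, 282 and 449 CPM with serotonin. It had 462, 420.3, 369, 356 and 430.0 CPM with pergolide and 389, 303, 445, 409 and 313 CPM with dexfenfluramine. All treated valves exceeded all Control valves, and the Control valves were widely spread. The pooled change was 0.93 (standard error 0.18, adjusted p = 0.00151), from 0.87 under serotonin, 1.03 under pergolide and 0.90 under dexfenfluramine. RPL8 (ENSOCUG00000003706) and RPL37A (ENSOCUG00000009905), proteins of the large ribosomal subunit, complete the rises among the 13. RPL8 had 264, 254, 245, 199.7 and 259 CPM in Control valves and 266 to 382 CPM (median 333) in treated valves, without overlap, and rose by 0.43 (standard error 0.08, adjusted p = 0.00135). RPL37A was scarce, with 1.08, 0.812, 1.58, 1.76 and 1.38 CPM in Control valves, 1.50 to 6.13 CPM (median 3.49) in treated valves, and 14 of 15 above the highest Control valve. Its change was 1.42 (standard error 0.30, adjusted p = 0.00313). Ribosomal protein genes have near-identical copies elsewhere in the genome, and how reads that match several places were counted is not given, so their counts are uncertain.

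TMEM116 (ENSOCUG00000007214), the other fall among the 13, had 11.5, 11.6, 5.61, 14.7 and 12.4 CPM in Control 1 to Control 5 and 2.09, 6.32, 2.33, 5.62 and 1.40 CPM with serotonin. In pergolide valves it had 2.48, 2.39, 6.52, 2.11 and 3.55 CPM, and in dexfenfluramine valves 2.58, 3.27, 0.719, 3.16 and 3.04 CPM. Of the treated valves, 12 of 15 lay below the lowest Control valve, Control 3. That valve and the lowest treated valve, Dexfenfluramine 3, also had the lowest cardiomyocyte sums of their groups. The part of heart muscle RNA in the fall of TMEM116 was not tested. TMEM116 fell by 1.82 (standard error 0.30, adjusted p = 0.000472), with -1.65 under serotonin, -1.71 under pergolide and -2.10 under dexfenfluramine. The strand setting of the counting is not given, so reads of an antisense or overlapping gene cannot be told apart from those of any gene named here.

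**Figure D3:**
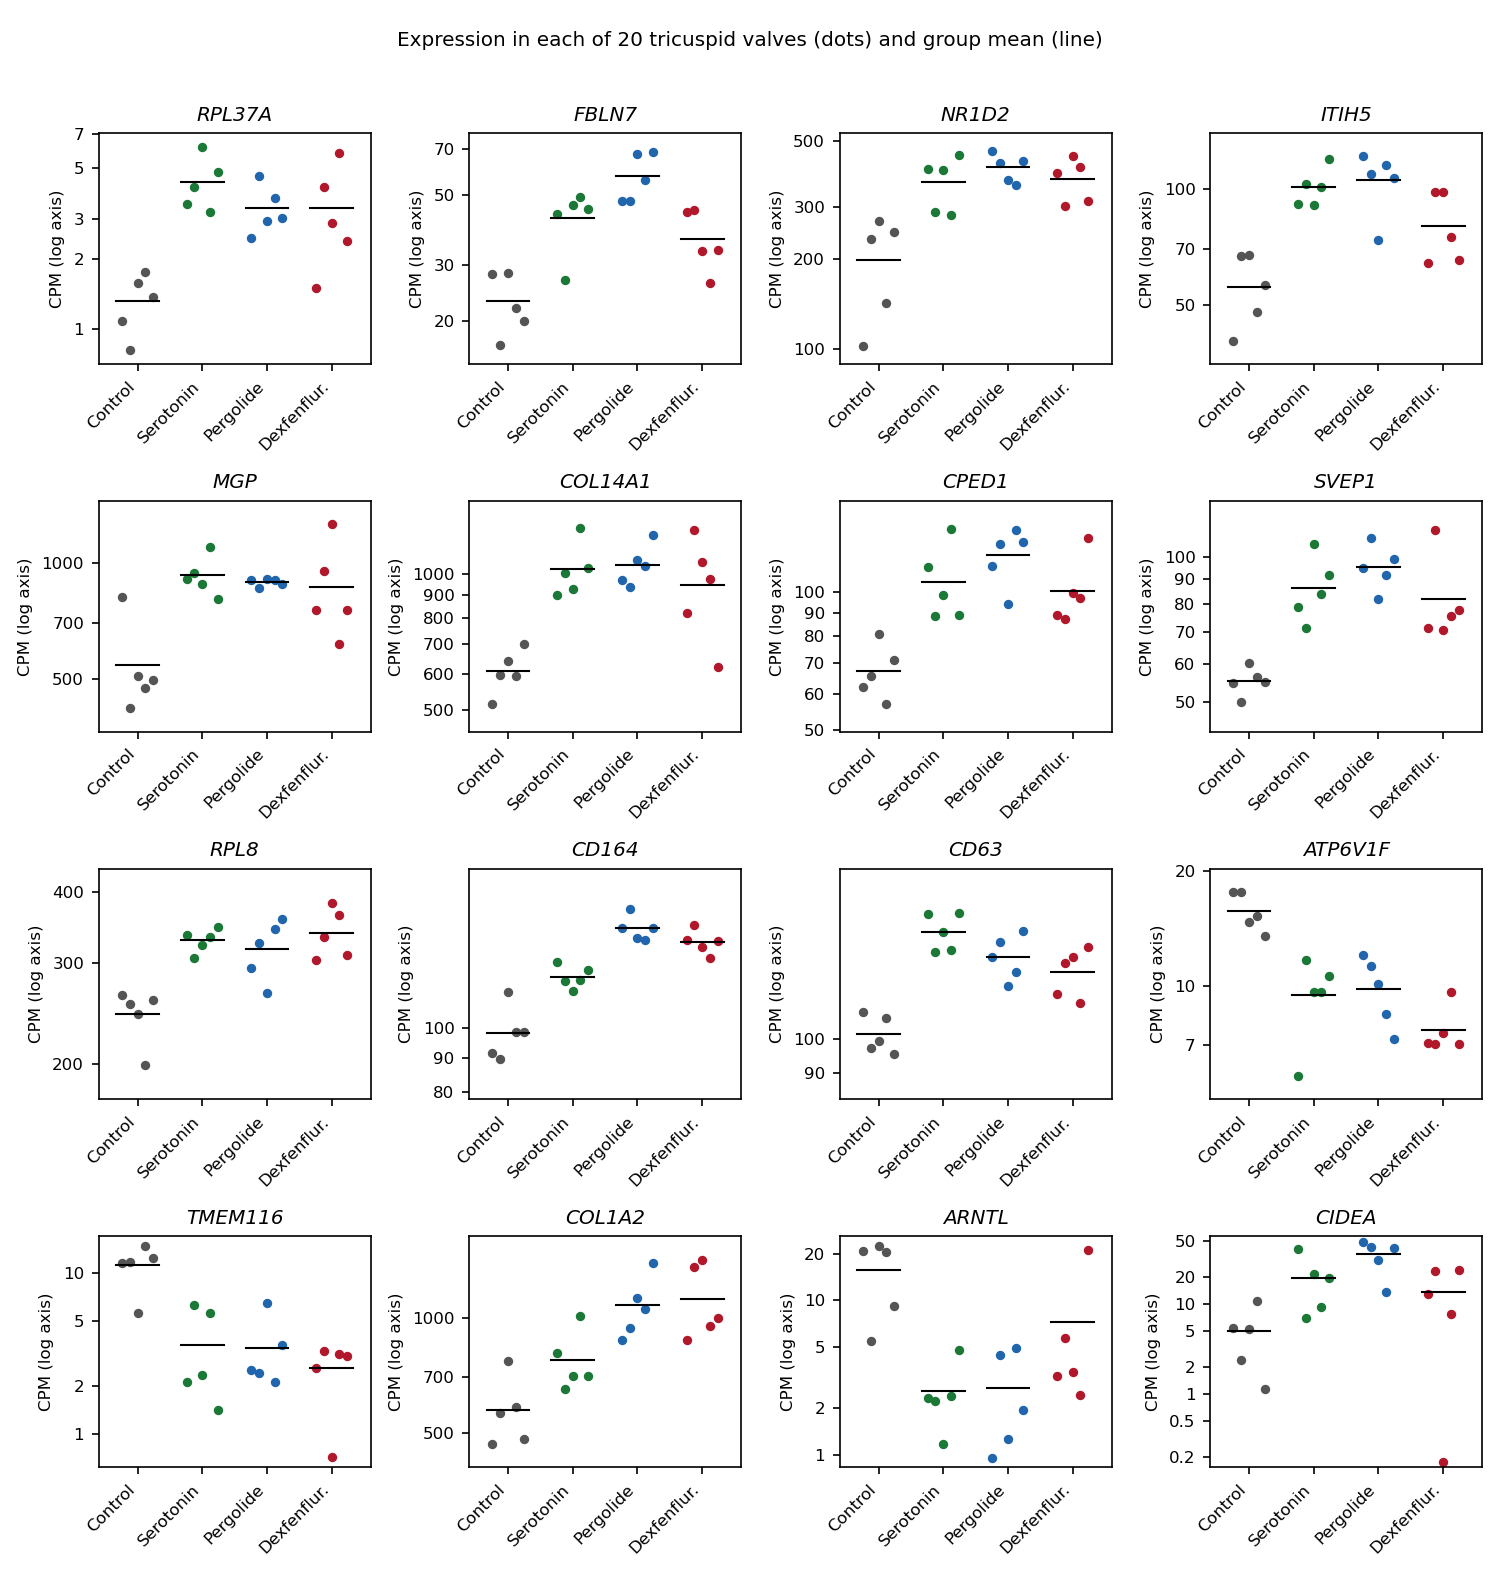
CPM (log axes) in each of the 20 valves, by group, for the 13 genes with an adjusted p under 0.05 in each treatment and for COL1A2, ARNTL and CIDEA, with bars at group means. SVEP1, CD164, CD63, CPED1, RPL8 and NR1D2 are higher, and ATP6V1F lower, in all 15 treated valves than in all 5 Control valves.

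Separated genes outside the 13 were also chosen by their values. LRRC17, a secreted leucine-rich repeat protein, had 54.7, 67.1, 60.6, 51.1 and 37 CPM in Control 1 to Control 5 and ran from 68.3 through a median of 87.5 to 155 CPM in treated valves, a change of 0.77 (standard error 0.14, adjusted p = 0.000947) with 0.46, 0.89 and 0.97 for serotonin, pergolide and dexfenfluramine. ENPP1, the enzyme that makes pyrophosphate outside cells and so restrains mineral formation, had 46.1, 44.4, 46.1, 40.8 and 43 CPM against 46.7 to 65.7 CPM in treated valves. It moved by nearly the same amount under each agent (0.36, 0.38 and 0.40), 0.38 (standard error 0.08, adjusted p = 0.00280) pooled. LXN, latexin, an inhibitor of carboxypeptidases, had 13.3, 26.8, 25.4, 19.1 and 23.4 CPM against 26.8 to 47.2 CPM, and rose by 0.63 (standard error 0.15, adjusted p = 0.00710); its lowest treated and highest Control valves almost touched. CAMKK1, a kinase that switches on calcium-dependent kinases, went from 2.88 to 6.20 CPM to 6.45 to 12.8 CPM (0.93, adjusted p = 0.00141).

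RPL24, a large-subunit ribosomal protein, had 60.5 to 84.1 CPM in Control and 85.8 to 136 CPM in treated valves, with a smaller change under serotonin (0.25, 0.67 and 0.69) and a difference between the agents (adjusted p = 0.00280). CNN3, an actin-binding calponin, had 73.1 to 102 CPM against 103 to 156 CPM (0.38, adjusted p = 0.00885). USP3, a protease that removes ubiquitin from histones, had 26.4 to 27.9 CPM against 30.0 to 42.1 CPM (0.33, adjusted p = 0.00955), and WDPC 1.76 to 3.25 CPM against 3.48 to 8.96 CPM (1.10). The gap between the groups was narrow in each of these 4 genes. ARNT, a partner of several basic helix-loop-helix factors, was separated at 45.7 to 54.7 CPM against 55.4 to 67 CPM but changed by only 0.18 (adjusted p = 0.0246), and its call was lost without Control 1, Control 2 and Control 4 (adjusted p from 0.0570 to 0.116). With ZNF143 it was 1 of the 2 separated genes that did not meet the one-way rule.

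Among the 8 that were lower in every treated valve, ABCF2, a member of the ABC protein family that acts outside membranes, had 43.6, 37.3, 34.9, 47.3 and 40.7 CPM in Control 1 to Control 5 and 21.7 to 33.5 CPM (median 28.6) in treated valves. The change was -0.51 (standard error 0.09, adjusted p = 0.00121), alike under each agent (-0.46, -0.46 and -0.61). SLAIN2, which promotes microtubule growth, had 58.2 to 67.3 CPM against 38.2 to 56 CPM (-0.39, adjusted p = 0.00159). SRPRA, the receptor for the signal recognition particle at the endoplasmic reticulum, had 99.8 to 113 CPM against 81.2 to 97.1 CPM, a change of only -0.24 (adjusted p = 0.00576). RALY, an RNA-binding protein, had 25 to 36.4 CPM against 14.2 to 23.4 CPM (-0.48, adjusted p = 0.00878). ZNF143, a zinc finger transcription factor, had 38.6 to 49.3 CPM against 26.9 to 37.9 CPM (-0.35), while ABT1 (-0.61) and HECA (-0.32) were the last of the 8.

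By size, the genes named by rule were the 8 rises and 8 falls whose smallest change in any treatment was largest, among called genes with a symbol, 1 sign in all treatments and a mean log2 CPM of at least 1. CIDEA (ENSOCUG00000011380), a lipid droplet protein and 1 of the 5 adipocyte markers, had 5.40, 2.43, 5.26, 10.9 and 1.15 CPM in Control 1 to Control 5 and 40.5, 6.95, 21.6, 9.37 and 19.3 CPM with serotonin. It had 49.3, 42.8, 30.7, 13.7 and 41.9 CPM with pergolide and 12.9, 23.4, 0.180, 7.81 and 23.8 CPM with dexfenfluramine. In 11 of 15 treated valves it was above the highest Control valve, and in Dexfenfluramine 3 below the lowest. The pooled change was 2.12 (standard error 0.60, adjusted p = 0.0186), from 2.01 under serotonin, 2.86 under pergolide and 1.48 under dexfenfluramine, and the call was lost without Control 2 and Control 5 (adjusted p from 0.0534 to 0.0568). The adipocyte sum, which holds CIDEA, ran from 5.03 CPM in Dexfenfluramine 3 to 224 CPM in Pergolide 1; its part in this rise was not tested.

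KLB (ENSOCUG00000009086), beta-klotho, a co-receptor for endocrine fibroblast growth factors, had 1.44, 0.541, 1.05, 2.35 and 1.84 CPM in Control valves and ran from 0 through a median of 6.69 to 15.4 CPM in treated valves. ABCD2 (ENSOCUG00000016168), a peroxisomal carrier of very long-chain fatty acids, had 2.52, 1.62, 2.45, 4.99 and 3.22 CPM against 1.98 to 26.9 CPM (median 12) in treated valves. KLB was at 0 in Dexfenfluramine 3, below every Control valve, and the lowest treated values of ABCD2 lay within the Control range; the highest treated values of both were several times above it. KLB rose by 2.21 (standard error 0.55, adjusted p = 0.00902) and ABCD2 by 2.05 (standard error 0.48, adjusted p = 0.00596). CYP3E1 (ENSOCUG00000017185), named as a cytochrome P450, had 2.88, 4.06, 1.23, 4.70 and 3.22 CPM in Control valves and 0 to 65.4 CPM (median 19) in treated valves; 14 of 15 exceeded every Control valve, and Dexfenfluramine 3 was at 0. It had the largest of these rises, 2.75 (standard error 0.71, adjusted p = 0.0114), with 2.93 under serotonin, 3.59 under pergolide and 1.73 under dexfenfluramine. MGST1 (ENSOCUG00000013514), a membrane-bound glutathione transferase, had 2.88, 1.62, 2.28, 5.29 and 2.53 CPM against 1.26 to 18.7 CPM (median 8.46) in treated valves, and rose by 1.52 (standard error 0.41, adjusted p = 0.0142). The adipocyte sum was lowest in Dexfenfluramine 3 (5.03 CPM), where KLB and CYP3E1 were at 0, ABCD2 at 1.98 CPM and MGST1 at its lowest. It was highest in Pergolide 1 and Pergolide 2 (224 and 223 CPM), where KLB, for one, had 13 and 15.4 CPM. The part of fat cell RNA in the rises of these 4 genes and of PPARG, below, was not tested.

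The last of the rises were scarce. MIS12 (ENSOCUG00000024925), a kinetochore protein, had 0.360, 1.08, 1.05, 0.587 and 0.459 CPM in Control valves and 0.465 to 3.86 CPM (median 2.05) in treated valves, with 14 of 15 above the highest Control valve, and rose by 1.50 (standard error 0.38, adjusted p = 0.0105). IRS3 (ENSOCUG00000008644), an insulin receptor substrate, had 1.08, 0.271, 0.876, 1.17 and 1.15 CPM against 0.583 to 3.49 CPM (median 2.31) in treated valves. Its change of 1.19 (standard error 0.38, adjusted p = 0.0364) was no longer called without Control 1, Control 2, Control 3, Control 4, Control 5 and Serotonin 1 (adjusted p from 0.0545 to 0.108). Both genes had as few as 1 read in a valve, so their fold changes rest on few counts. RPL37A, given among the 13, completes the 8.

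PPARG and the adipocyte markers outside the rule were named after these values were seen. PPARG, the nuclear receptor that directs fat cell formation, rose by 1.53 (standard error 0.45, adjusted p = 0.0221), with 1.57 under serotonin, 2.03 under pergolide and 1.00 under dexfenfluramine, and its call was lost without Control 1, Control 2 and Control 5 (adjusted p from 0.0506 to 0.0608). THRSP, a regulator of lipid synthesis and the other adipocyte marker called, had 0.360, 0.271, 0.876, 0.294 and 0.919 CPM in Control valves and 0 to 6.82 CPM (median 1.40) in treated valves, changing by 1.81 (standard error 0.62, adjusted p = 0.0486), but by only 0.40 with dexfenfluramine. That call was lost in 15 of the 20 fits, without Control 1, Control 2, Control 3, Control 4, Control 5, Serotonin 1, Serotonin 3, Pergolide 1, Pergolide 2, Pergolide 3, Pergolide 5, Dexfenfluramine 1, Dexfenfluramine 2, Dexfenfluramine 4 and Dexfenfluramine 5 (adjusted p from 0.0527 to 0.112). The other 3 markers were not called: ADIPOQ at 0.92 (standard error 0.44, adjusted p = 0.155), LEP, the hormone leptin, at 1.51 (standard error 0.65, adjusted p = 0.112), and DGAT2, a triglyceride-forming enzyme, at 0.54 (standard error 0.38, adjusted p = 0.339). The 5 markers had a median of 1.51, with 1.63 under serotonin, 2.24 under pergolide and 0.52 under dexfenfluramine.

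Of the 8 falls named by size, ARNTL (ENSOCUG00000005940), also called BMAL1, is the activating partner of CLOCK in the circadian clock. It had 20.9, 5.41, 22.6, 20.6 and 9.19 CPM in Control 1 to Control 5 and 2.33, 2.21, 1.17, 2.41 and 4.77 CPM with serotonin. The values were 0.956, 4.43, 1.26, 4.92 and 1.95 CPM with pergolide and 3.22, 5.68, 3.41, 2.42 and 21.3 CPM with dexfenfluramine. Serotonin and pergolide valves lay below every Control valve, Dexfenfluramine 2 just above the lowest and Dexfenfluramine 5 near the highest of them. ARNTL fell by 2.06 (standard error 0.42, adjusted p = 0.00263), with -2.59 under serotonin, -2.50 under pergolide and -1.09 under dexfenfluramine. TUBA4A (ENSOCUG00000026994), an alpha-tubulin of microtubules, had 57.3, 45.7, 19.1, 42 and 33.8 CPM in Control valves and ran from 5.57 through a median of 16.2 to 22.9 CPM in treated ones. There 11 of 15 lay below the lowest Control valve, for a change of -1.40 (standard error 0.23, adjusted p = 0.000461) and -1.07 under serotonin, -1.33 under pergolide and -1.79 under dexfenfluramine. Its lowest Control valve, Control 3, and its lowest treated valve, Dexfenfluramine 3, also had the lowest cardiomyocyte sums of their groups. The part of heart muscle RNA in the fall of TUBA4A was not tested.

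MB (ENSOCUG00000026126), the muscle oxygen-binding protein myoglobin and a cardiomyocyte marker, had 765, 542, 156, 537 and 516 CPM in Control 1 to Control 5 and ran from 11 through a median of 228 to 402 CPM in treated valves. Control 3 was the lowest Control valve and lay inside the treated range. MB fell by 1.28 (standard error 0.43, adjusted p = 0.0466), without meeting the one-way rule, and was not called in 13 of the 20 fits, without Control 1, Control 2, Control 4, Control 5, Serotonin 1, Serotonin 3, Serotonin 5, Pergolide 1, Pergolide 3, Pergolide 4, Pergolide 5, Dexfenfluramine 2 and Dexfenfluramine 4 (adjusted p from 0.0516 to 0.147). FHL2 (ENSOCUG00000007967), a LIM-domain protein abundant in heart muscle, had 206, 138, 24.7, 163 and 84.1 CPM in Control valves and 15.8 to 94.8 CPM (median 50.5) in treated valves; it changed by -1.20 (standard error 0.34, adjusted p = 0.0185), a call lost without Control 1 and Control 4 (adjusted p from 0.0604 to 0.0930). Beside both, the mean cardiomyocyte sums were 110809 CPM in Control valves against 76841, 74513 and 54298 CPM with serotonin, pergolide and dexfenfluramine; in Control 3, the lowest Control valve of both genes, the sum was 50104 CPM, and the part of heart muscle RNA in these changes was not tested.

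SMCO1 (ENSOCUG00000021380) had 7.56, 8.12, 4.56, 4.70 and 5.74 CPM in Control valves and ran from 1.55 through a median of 2.33 to 4.84 CPM in treated valves, 14 of 15 below the lowest Control valve, and fell by 1.17 (standard error 0.25, adjusted p = 0.00328). SNORA26 (ENSOCUG00000019647), a small nucleolar RNA that guides pseudouridine formation, had 3.60, 1.89, 2.98, 5.87 and 2.76 CPM against 0 to 2.33 CPM (median 1.16) in treated valves. It changed by -1.34 (standard error 0.36, adjusted p = 0.0142), and its call was lost without Control 4 (adjusted p = 0.0734). Ccdc162 (ENSOCUG00000006035) had 5.04, 5.41, 1.75, 8.22 and 5.74 CPM against 0 to 4.09 CPM (median 2.05) in treated valves; its change of -1.38 (standard error 0.45, adjusted p = 0.0384) did not meet the one-way rule and was not called without Control 1, Control 2, Control 4, Control 5, Serotonin 3 and Dexfenfluramine 2 (adjusted p from 0.0531 to 0.129). SNORA26 and Ccdc162 were at 0 in some treated valve, and TMEM116 is the eighth fall.

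**Figure D4:**
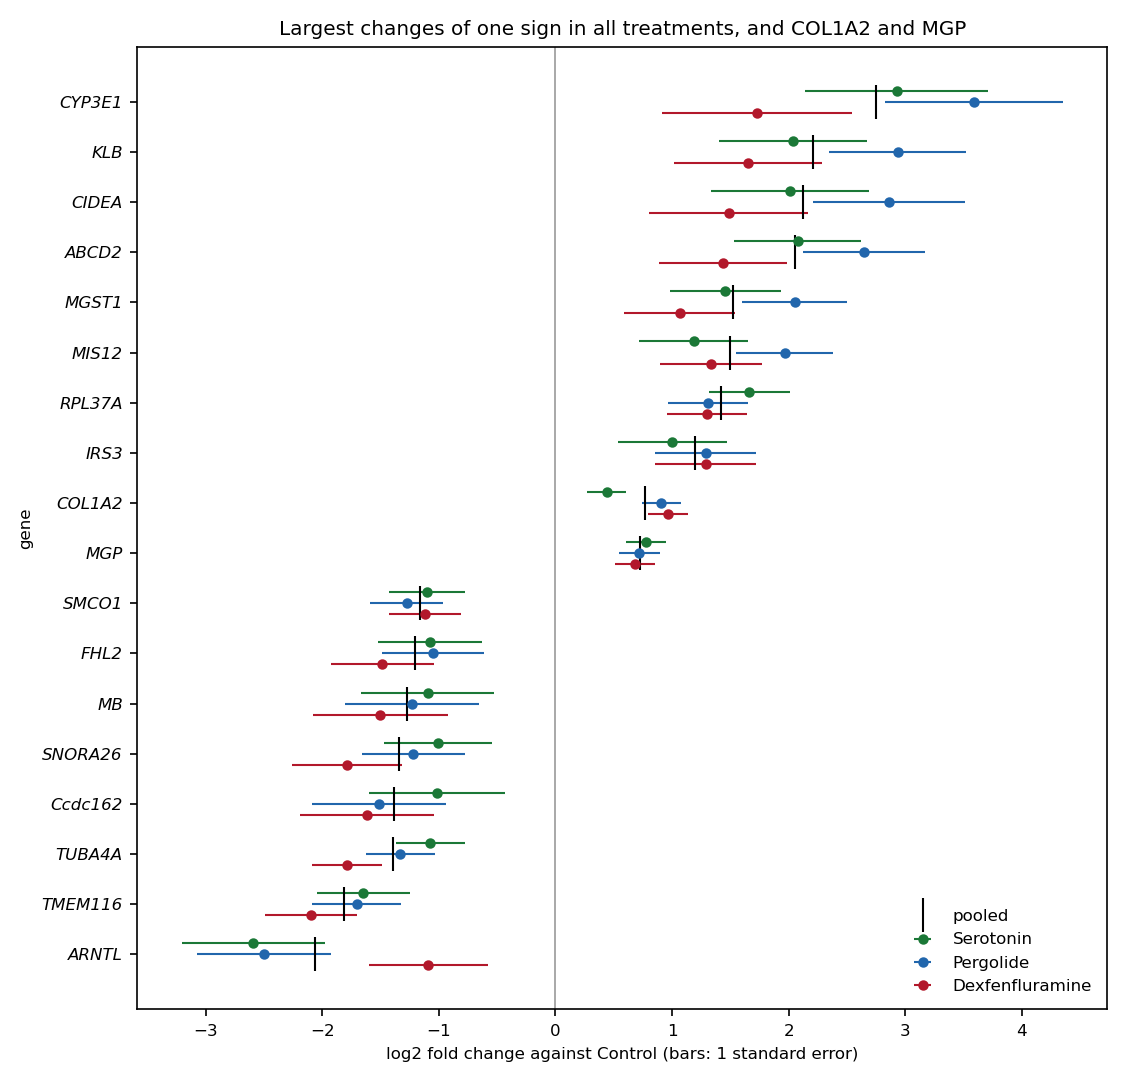
Log2 fold change against Control of the 16 genes named by size and of COL1A2 and MGP, as points for serotonin, pergolide and dexfenfluramine with standard errors and a bar for the pooled value. All 18 have 1 sign in the 3 treatments, from 2.75 for CYP3E1 to -2.06 for ARNTL.

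The one-way genes and the wider calls were then read by role, with lists drawn up from known gene function. For comparison, of the 3456 tested genes with a symbol, 642 rose (18.6%) and 722 fell (20.9%) in the pooled contrast, and 155 (4.48%) moved one way up and 107 (3.10%) one way down. The agents differed in 1807 of the 3456 (52.3%). Of 11 fibrillar collagen and collagen assembly genes, 8 rose and 0 fell, 3 of them one way, with a median of 0.48 that was 0.17 under serotonin, 0.47 under pergolide and 0.64 under dexfenfluramine. COL1A2 (ENSOCUG00000012264), a chain of collagen I, had 469, 562, 769.6, 583 and 482 CPM in Control 1 to Control 5 and 811, 653, 706, 1007 and 706 CPM with serotonin. It had 873, 942, 1124, 1052 and 1387 CPM with pergolide and 872, 1351, 1417, 949 and 999 CPM with dexfenfluramine. Of the serotonin valves, 3 lay below Control 3, the highest Control valve, while all pergolide and dexfenfluramine valves lay above it. COL1A2 rose by 0.77 (standard error 0.14, adjusted p = 0.00143), with 0.44 under serotonin, 0.91 under pergolide and 0.96 under dexfenfluramine, and the agents differed (adjusted p = 0.0406). COL3A1, the chain of collagen III, ran from 1221 through a median of 1784 to 2772 CPM in treated valves against 783 to 1458 CPM, and rose by 0.76 (standard error 0.14, adjusted p = 0.00127), but by 0.33 with serotonin, short of the one-way rule. COL1A1, the other collagen I chain, had 0.89 (0.45, 1.07 and 1.15), and LOX, which cross-links collagen, 0.48 (standard error 0.15, adjusted p = 0.0369) with 0.52, 0.44 and 0.48; the LOX call was lost without Control 1, Control 2, Control 4, Control 5, Serotonin 1 and Pergolide 2 (adjusted p from 0.0521 to 0.120). These last 2 were chosen after their values were seen.

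Matrix glycoproteins and elastic fibre genes gave 11 rises and 0 falls of 24, 6 of them one way, with a median of 0.41 (0.18 under serotonin, 0.56 under pergolide and 0.57 under dexfenfluramine). SVEP1 and FBLN7 had the smallest p of this list. Of 13 proteoglycan and hyaluronan genes, 1 rose and 1 fell, none one way, around a median of 0.31 (0.08 under serotonin, 0.40 under pergolide and 0.40 under dexfenfluramine). CSPG4, a cell surface proteoglycan, was the rise (0.32 (standard error 0.10, adjusted p = 0.0375)), and CHST11, which adds sulfate to chondroitin, the fall (-0.83 (standard error 0.27, adjusted p = 0.0380)). The CSPG4 call was lost without Control 1, Control 2, Control 4, Control 5, Serotonin 1, Serotonin 4, Pergolide 5, Dexfenfluramine 2 and Dexfenfluramine 4 (adjusted p from 0.0505 to 0.125), and that of CHST11 without Control 1, Control 2, Control 5, Serotonin 3, Pergolide 4, Pergolide 5, Dexfenfluramine 2, Dexfenfluramine 3 and Dexfenfluramine 4 (adjusted p from 0.0503 to 0.175). Among proteases and their inhibitors, 11 of 19 rose and 0 fell, 6 one way, with a median of 0.43. LXN, described above, and TIMP1, an inhibitor of matrix metalloproteases, had the smallest p. TIMP1 had 9.36, 10.3, 13.1, 11.2 and 13.6 CPM in Control 1 to Control 5 and ran from 12.8 through a median of 17.8 to 24.3 CPM in treated valves, 14 of 15 above all Control valves, and rose by 0.59 (standard error 0.14, adjusted p = 0.00774) with 0.63 under serotonin, 0.50 under pergolide and 0.66 under dexfenfluramine. CTSK, cathepsin K, a collagen-degrading protease chosen after its values were seen, rose by 0.52 (standard error 0.14, adjusted p = 0.0126), a call lost without Control 4 (adjusted p = 0.0577).

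Of 21 genes of TGF-beta and BMP signalling, 9 rose, 0 fell and 4 moved one way up, with a median of 0.38 that was 0.10 under serotonin, 0.38 under pergolide and 0.56 under dexfenfluramine. Without Control 4 the pooled median was 0.25. With all valves, 10 of the 21 differed between the agents, a share near that of all named genes. CHRD1 ran from 70.1 through a median of 93.5 to 141 CPM in treated valves against 41.8, 56.8, 80.4, 50.2 and 64.3 CPM in Control 1 to Control 5, and rose by 0.67 (standard error 0.14, adjusted p = 0.00293). Its symbol is given as the study prints it, and CHRD is a separate gene of this list. CHRD1 entered the list by that symbol alone, so its place there is uncertain. TGFBR1, a kinase receptor for TGF-beta, had 51.9, 47.6, 62.6, 43.2 and 52.4 CPM in Control valves and 49.9 to 99.8 CPM (median 72.6) in treated ones; it rose by 0.47 (standard error 0.10, adjusted p = 0.00345), though by 0.24 with serotonin and not one way. Chosen after their values were seen, BMP2, a bone morphogenetic protein, had 2.52, 1.08, 2.28, 0.881 and 2.53 CPM against 1.80 to 5.89 CPM (median 3.52) in treated valves, with 14 of 15 treated valves above every Control valve. It rose by 0.97 (standard error 0.29, adjusted p = 0.0230), alike under each agent (0.96, 1.05 and 0.90), and was not called without Control 2 and Control 4 (adjusted p from 0.0756 to 0.0793). SMAD7, which blocks TGF-beta receptors from within the cell, rose by 0.77 (standard error 0.21, adjusted p = 0.0146) with 0.69, 0.70 and 0.91 and was not called without Control 1 (adjusted p = 0.0538).

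Of all lists, the clock genes had the largest share of one-way calls. Of 10 tested, 5 rose and 3 fell, 2 and 3 of them one way, and 1 differed between the agents. NR1D2 and ARNTL, with the smallest p, moved in opposite directions. Chosen after their values were seen, NFIL3, a transcription factor of the clock's output, had 10.8, 3.79, 2.98, 5.29 and 5.97 CPM in Control valves and ran from 0.698 through a median of 2.05 to 4.48 CPM in treated valves. It fell by 1.44 (standard error 0.31, adjusted p = 0.00366) with -2.04 under serotonin, -1.45 under pergolide and -0.81 under dexfenfluramine, and 11 of 15 treated valves lay below all Control valves. HLF, an activator of the same output genes, had 9.36, 13.8, 10.5, 6.17 and 10.3 CPM against 9.79 to 22.3 CPM (median 16) in treated valves and rose by 0.69 (standard error 0.16, adjusted p = 0.00484). CLOCK fell by 0.33 (standard error 0.09, adjusted p = 0.0155), with -0.35, -0.32 and -0.32 for serotonin, pergolide and dexfenfluramine. The repressors PER1 (0.63 (standard error 0.22, adjusted p = 0.0483)) and CRY2 (0.44 (standard error 0.14, adjusted p = 0.0325)) rose without meeting the one-way rule. PER1 was not called in 14 of the 20 fits, without Control 1, Control 2, Control 4, Control 5, Serotonin 1, Serotonin 3, Pergolide 1, Pergolide 3, Pergolide 4, Pergolide 5, Dexfenfluramine 1, Dexfenfluramine 2, Dexfenfluramine 3 and Dexfenfluramine 4 (adjusted p from 0.0510 to 0.139), and CRY2 not without Control 1, Control 2, Control 4 and Control 5 (adjusted p from 0.0526 to 0.105). The time of day at which hearts were taken is not given in the sources at hand.

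Cytosolic ribosomal protein genes were called in both directions: 22 of 51 rose and 5 fell, with 10 rises and no fall one way, around a median of 0.18. By agent the median was 0.25 under serotonin, 0.37 under pergolide and 0.39 under dexfenfluramine. Of the 51, 38 differed between the agents, beside 52.3% of all tested genes with a symbol. RPL21, of the large subunit, had 6.12, 13.3, 13.1, 12 and 9.42 CPM in Control valves, 18.4, 14.9, 9.34, 11.2 and 18.8 CPM with serotonin, 0.573, 0.512, 0, 0.527 and 1.24 CPM with pergolide and 0.430, 0.344, 1.08, 1.49 and 0.480 CPM with dexfenfluramine. Serotonin valves lay in or above the Control range while the other treated valves were at or near 0, so its pooled value of -2.51 (standard error 0.26, adjusted p = 5.47e-06) describes no common change. RPSA, of the small subunit, showed the reverse, with -0.18 for serotonin against 1.50 and 1.72 for the other agents, and 1.01 (standard error 0.13, adjusted p = 3.80e-05) pooled. The uncertainty from near-identical copies applies to every gene of this list.

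Of 49 sarcomere and muscle structure genes, 18 fell and 0 rose, 3 of them one way, around a median of -0.62 (-0.38 under serotonin, -0.56 under pergolide and -0.91 under dexfenfluramine). TNNT2, the cardiac troponin T of thin filaments, had 5322, 2812, 1467, 3568 and 2301 CPM in Control 1 to Control 5 and 1889, 5440.0, 1102, 3401 and 2932 CPM with serotonin. The pergolide values were 675, 675, 856, 385 and 618 CPM and the dexfenfluramine values 464, 356, 102, 801 and 518 CPM. Serotonin and Control valves overlapped widely, and every pergolide and dexfenfluramine valve lay lower. Its pooled change was -1.71 (standard error 0.33, adjusted p = 0.00161), with -0.07 under serotonin, -2.27 under pergolide and -2.79 under dexfenfluramine. LMOD2, a leiomodin that starts actin filaments, had 1071, 751, 494, 1504 and 811 CPM against 67.7 to 804 CPM (median 439) in treated valves, and fell by 1.11 (standard error 0.26, adjusted p = 0.00664), with -0.56, -1.05 and -1.71. Of the 12 cardiomyocyte markers, 5 fell, none one way, with a median of -0.76; after TNNT2 the smallest p was that of TNNC1, cardiac troponin C, at -1.27 (standard error 0.37, adjusted p = 0.0212), a call lost without Control 1 and Control 4 (adjusted p from 0.0510 to 0.126). The 3 one-way falls were FHL2 and, chosen after their values were seen, TPM1, a tropomyosin, and MYOCD, a coactivator of muscle genes. TPM1 changed by -0.86 (standard error 0.25, adjusted p = 0.0203) and MYOCD by -0.92 (standard error 0.24, adjusted p = 0.0131); the first was not called without Control 4 (adjusted p = 0.0749) and the other not without Control 4 (adjusted p = 0.0707).

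Genes encoded by mitochondrial DNA fell in 8 of 13 cases, none one way, with a median of -0.81 that was -0.06 under serotonin, -1.07 under pergolide and -1.45 under dexfenfluramine; 11 of them differed between the agents. ND6, a subunit of complex I, had 2221, 2005, 1004, 2932 and 1811 CPM in Control valves, and 1186, 2087, 1095, 1728 and 1238 CPM with serotonin. With pergolide it had 560.3, 569.5, 590.3, 405 and 342 CPM and with dexfenfluramine 471, 396, 131, 382 and 686 CPM. Serotonin valves lay within the Control range and all others below it, for -1.58 (standard error 0.24, adjusted p = 0.000240) pooled. CYTB, the cytochrome b of complex III, fell by 1.14 (standard error 0.26, adjusted p = 0.00573), with -0.46, -1.19 and -1.77 for serotonin, pergolide and dexfenfluramine. Nuclear genes of oxidative phosphorylation gave 6 falls and 0 rises of 36, again none one way, with a median of -0.42 (-0.23 under serotonin, -0.38 under pergolide and -0.78 under dexfenfluramine); the share that fell was below the 20.9% of all tested genes with a symbol. NDUFAF1, which assembles complex I, had 28.8, 21.9, 18.8, 25.3 and 24.3 CPM against 6.65 to 23.4 CPM (median 17.2) in treated valves and fell by 0.64 (standard error 0.14, adjusted p = 0.00373). NDUFB9, a complex I subunit, changed by -0.95 (standard error 0.26, adjusted p = 0.0150) and was not called without Control 1 (adjusted p = 0.0957). Both changed least with serotonin: -0.23, -0.62 and -1.08 for NDUFAF1, and -0.30, -1.01 and -1.56 for NDUFB9. In both the agents differed (adjusted p = 0.00348 and 0.0195).

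In the citrate cycle and fatty acid oxidation list, 7 of 28 genes fell and 0 rose, 3 of them one way, with a median of -0.46 (-0.29 under serotonin, -0.32 under pergolide and -0.70 under dexfenfluramine); this share of falls was near that 20.9%. PDK2, a kinase that holds back pyruvate dehydrogenase, had 36, 31.1, 11.9, 33.5 and 29.9 CPM in Control 1 to Control 5 and ran from 9.34 through a median of 15.8 to 21.8 CPM in treated valves. Control 3 lay among the treated valves and the other 4 Control valves above all of them, and PDK2 fell by 0.84 (standard error 0.19, adjusted p = 0.00487) with -0.65 under serotonin, -0.95 under pergolide and -0.93 under dexfenfluramine. PPARGC1A, a coactivator of mitochondrial genes, changed by -0.88 (standard error 0.24, adjusted p = 0.0147), not one way, and was not called without Control 4 (adjusted p = 0.0805). ACADVL, an enzyme of long-chain fatty acid oxidation chosen after its values were seen, fell one way by 0.65 (standard error 0.18, adjusted p = 0.0175) and was not called without Control 1 and Control 4 (adjusted p from 0.0561 to 0.0643). Glycolysis and glycogen genes went both ways: 3 of 14 rose and 4 fell, 1 and 3 of them one way, around a median of -0.39. In this short list the shares that rose and fell were not far from the 18.6% and 20.9% of all tested genes with a symbol. PHKB, a regulatory subunit of phosphorylase kinase, and ENO1, an enolase, had the smallest p; PHKB changed by 1.09 (standard error 0.13, adjusted p = 1.73e-05) and ENO1 by 0.28 (standard error 0.06, adjusted p = 0.00278). For both the pooled rise came from pergolide and dexfenfluramine, with 0.09, 1.65 and 1.54 for PHKB and -0.28, 0.59 and 0.55 for ENO1.

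The one-way glycolysis genes were chosen after their values were seen. GAPDH, often taken as a reference gene, had 411, 277, 131, 305 and 260.3 CPM in Control valves and ran from 75.6 through a median of 151 to 219.5 CPM in treated valves. Here too Control 3 lay among the treated valves and the other 4 Control valves above all of them. GAPDH fell by 0.83 (standard error 0.19, adjusted p = 0.00568), with -0.65 under serotonin, -0.80 under pergolide and -1.04 under dexfenfluramine. HK1, a hexokinase, changed by -0.63 (standard error 0.14, adjusted p = 0.00495) with -0.46, -0.66 and -0.76, and LDHB, a lactate dehydrogenase chain of heart muscle, by -0.91 (standard error 0.26, adjusted p = 0.0192), a call lost without Control 1 and Control 4 (adjusted p from 0.0654 to 0.0709). ALDOC, an aldolase, was the rise, at 1.20 (standard error 0.36, adjusted p = 0.0260) with 1.09, 1.52 and 0.98, and was not called without Control 1, Control 2 and Control 5 (adjusted p from 0.0660 to 0.0803). Control 3 was the lowest Control valve in the cardiomyocyte sum. Without it the pooled median was -0.79 for sarcomere genes, -0.99 for mitochondrially encoded genes and -0.58 for nuclear oxidative phosphorylation genes. It was -0.56 for the citrate cycle and fatty acid oxidation, -0.50 for glycolysis and -0.96 for the cardiomyocyte markers. The part of heart muscle RNA in the muscle, mitochondrial and energy lists was not tested.

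Of 43 splicing and hnRNP genes, 6 rose and 11 fell, none one way, and 39 differed between the agents. The shares that rose and fell were not far from the 18.6% and 20.9% of all tested genes with a symbol. Of those genes, 52.3% differed between the agents. The median of the list was 0.14 under serotonin, -0.37 under pergolide and -0.33 under dexfenfluramine. After HNRNPA2B1 the smallest p was that of HNRNPH3, of the same kind, which had 225 to 264 CPM in Control and 105 to 305 CPM in treated valves and changed by -0.63 (standard error 0.07, adjusted p = 1.52e-05), with 0.14, -1.05 and -0.99. Small nucleolar RNAs gave 5 rises and 16 falls of 35, with SNORA26 the 1 that moved one way, and a median of -0.67 (-0.11 under serotonin, -0.95 under pergolide and -0.89 under dexfenfluramine). SNORD83, a guide for ribose methylation, had 18.7, 8.66, 7.19, 6.46 and 3.45 CPM against 1.29 to 8.53 CPM (median 2.73) in treated valves and fell by 1.41 (standard error 0.28, adjusted p = 0.00193). SNORA53, a guide for pseudouridine formation, rose by 1.34 (standard error 0.28, adjusted p = 0.00266). Under serotonin the values were -0.59 and 0.31, and both genes differed between the agents (adjusted p = 0.0185 and 0.000598). Many small nucleolar RNAs lie within introns of other genes, where their reads can include those of the host transcript.

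Heat shock protein genes fell in 6 of 15 cases and rose in 0, 2 one way, with a median of -0.28 (-0.13 under serotonin, -0.37 under pergolide and -0.57 under dexfenfluramine). HSP90AB1, an abundant chaperone, had 1265, 1144, 902, 1092 and 899 CPM in Control 1 to Control 5 and ran from 674 through a median of 772 to 1019.9 CPM in treated valves. In 12 of 15 treated valves it was below the lowest Control valve; it fell by 0.43 (standard error 0.08, adjusted p = 0.00151), least with serotonin (-0.22, -0.47 and -0.59), and the agents differed (adjusted p = 0.0186). DNAJB4, a co-chaperone, changed by -0.47 (standard error 0.10, adjusted p = 0.00278), with 0.14 under serotonin. Of 5 immediate early genes, which respond within minutes to stimulation or handling, 1 rose and 1 fell. These shares were near the 18.6% and 20.9% of all tested genes with a symbol. DUSP6, a phosphatase of ERK kinases, was the rise (0.73 (standard error 0.19, adjusted p = 0.0124)), and GADD45A, a stress response gene, the fall (-0.82 (standard error 0.20, adjusted p = 0.00787)), with 14 of 15 treated valves below every Control valve; neither met the one-way rule.

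Receptors and enzymes of serotonin and dopamine could hardly be followed by name: 2 of them, HTR4, a serotonin receptor, and MAOA, which degrades serotonin, had a symbol and were tested, and neither was called (pooled log2 fold changes of 0.59 and 0.15; adjusted p = 0.149 and 0.547). Of secreted signals chosen after their values were seen, VEGFA, a growth factor for vessels, had 94.7, 62.5, 34, 60.5 and 82.2 CPM in Control valves and 26.2 to 56.2 CPM (median 35.6) in treated valves, and fell one way by 0.81 (standard error 0.19, adjusted p = 0.00563) with -0.74 under serotonin, -0.88 under pergolide and -0.80 under dexfenfluramine. EDN1, the vasoconstrictor endothelin, rose one way by 0.59 (standard error 0.18, adjusted p = 0.0307) with 0.73, 0.51 and 0.53 and was not called without Control 1, Control 2 and Control 4 (adjusted p from 0.0869 to 0.113).

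Of the 10 valvular interstitial cell markers, 7 rose and 0 fell, 4 one way, with a median of 0.51 (0.36 under serotonin, 0.70 under pergolide and 0.55 under dexfenfluramine). COL3A1 and COL1A2 had the smallest p, and 7 of the 10 (COL1A1, COL1A2, COL3A1, MGP, LUM, DCN and FAP) are also among the 67 genes of the 4 matrix lists, so the marker counts and the matrix counts largely share genes. Of 2 macrophage and leukocyte markers 1 was called, and no endothelial, smooth muscle, Schwann cell and melanocyte or chondrocyte marker was called. The part of a changed mix of cells in the pooled results was not tested.

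**Figure D5:**
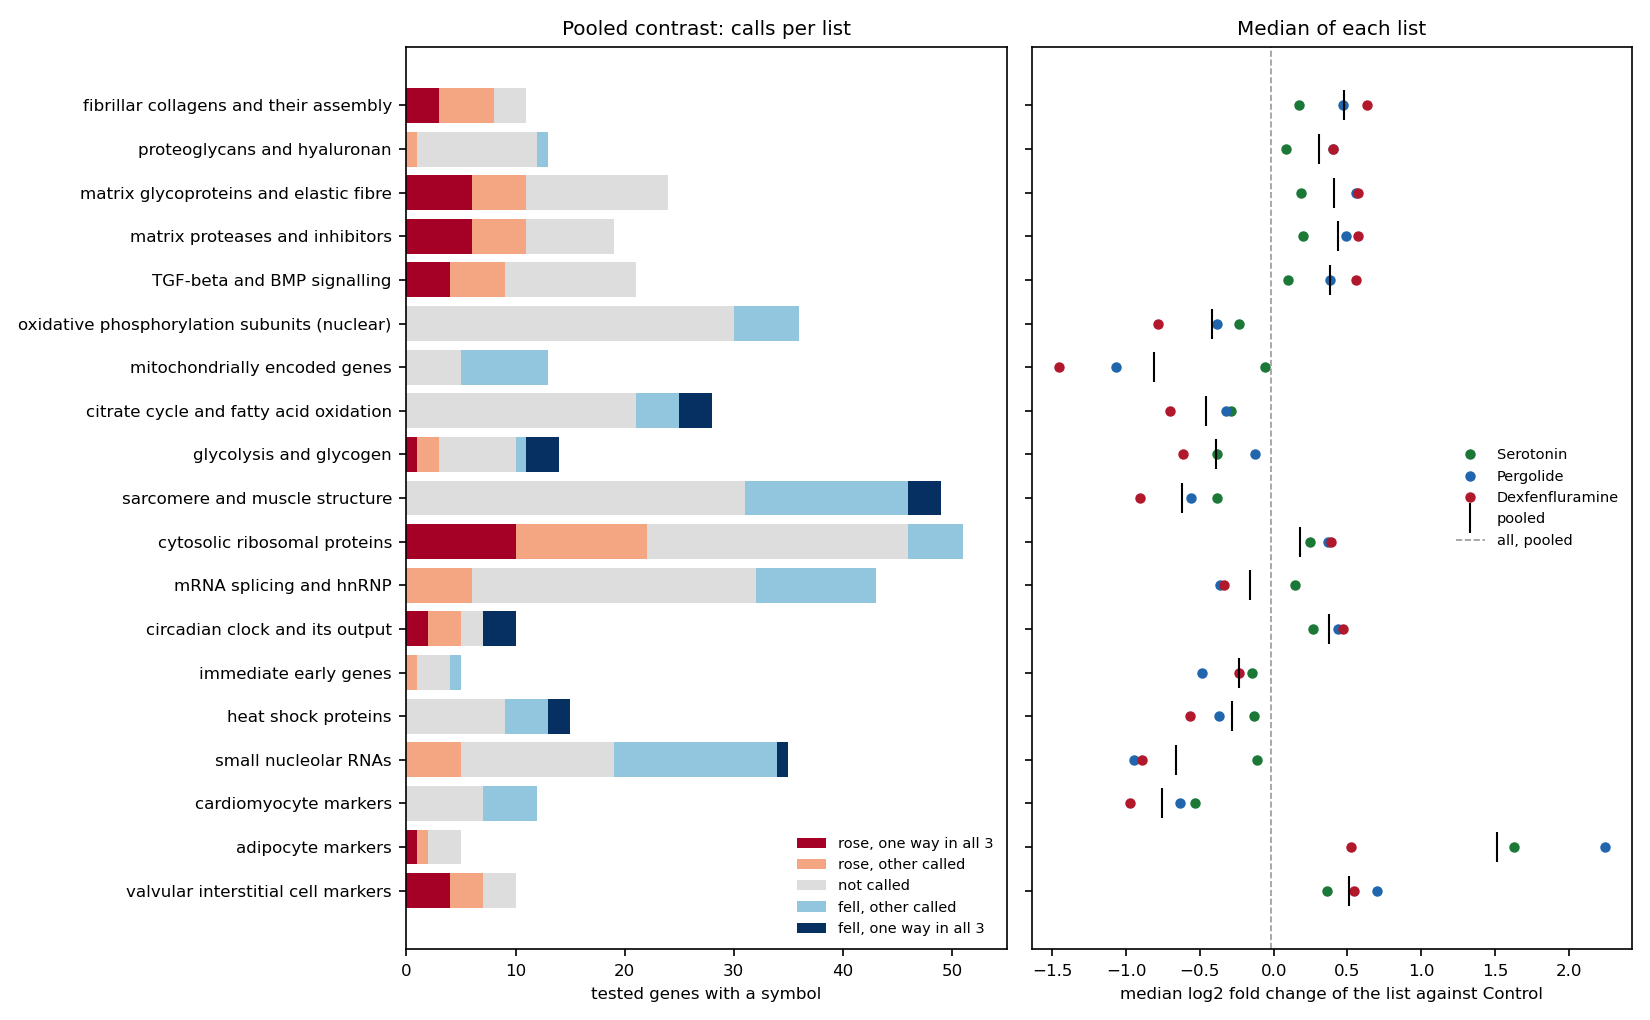
Left, number of tested genes with a symbol in each list, split into rises and falls called in the pooled contrast, with those moved one way in all 3 treatments in the darker shade. Right, median log2 fold change against Control of each list for the 3 treatments and pooled, beside the median of all tested genes with a symbol (-0.02): matrix lists lie above it and muscle and energy lists below it, with serotonin nearest to 0 in most.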

How the data were processed

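RNA of 20 tricuspid valves was sequenced. Per the deposited labels and the study's methods, the authors depleted ribosomal RNA, made stranded libraries, trimmed reads, aligned them to oryCun2 with TopHat2 2.1.1 and counted them per Ensembl gene with HTSeq in union mode. The deposited values are whole-number counts, not normalized or filtered, with 3247091 to 5921025 per valve. The annotation release, strand setting and handling of reads with several matches are not given, and the labels do not spell out that columns w hold the Control valves. The members and lists were chosen with earlier results of these data known. Weakly counted genes were dropped (edgeR's filterByExpr, 4 groups), library sizes were scaled by TMM, and 1 edgeR 4.0.16 quasi-likelihood fit (R 4.3.3) of all 20 valves with 4 group means was used. The pooled contrast is the mean of the 3 treatments minus Control. P-values were adjusted over all 8683 genes by the Benjamini-Hochberg method. Separation of treated and Control valves used log2 CPM with a prior count of 2. The scripts were tested on simulated data. Standard errors are the fold change divided by the square root of F. Symbols came from 2959 entries of the study's table with a full identifier and 564 with 1 surplus zero removed; 273 shortened identifiers were not used, and no reference table paired Ensembl identifiers with names. Genes were named by the rule on size given in the report, COL1A2 and MGP, and the 2 genes of smallest p in each list with at least 5 tested genes; others are said to be chosen after their values were seen. Alternatives were DESeq2 1.42.0, limma 3.58.1 (voom), svaseq in sva 3.50.0 (2 variables), RLE and upper-quartile factors, library sizes without the most abundant gene, no filter, a floor of 10 counts in every valve, an adjusted p under 0.01, the replicate number as a block, the treated valves as 1 group, each valve or treatment left out, and, chosen after seeing the data, Control 3 and Dexfenfluramine 3 both left out. Python 3.11.15 with numpy 2.4.6, pandas 2.3.3 and matplotlib 3.10.9 made the summaries and plots. No libraries were duplicates within counting noise.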

Additional observations from a re-analysis of the deposited data

Results flagged for a closer look

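Of 132 groups of 5 valves examined (genes named by size or called in each treatment, COL1A2, MGP, marker sums and library measures), 9 held a value far from the other 4; chance alone marks about 1 in 20 groups. These values were 1.2 CPM of MIS12 in Dexfenfluramine 2, 0.719 CPM of IRS3 and 0.719 CPM of TMEM116 in Dexfenfluramine 3, 21.3 CPM of ARNTL in Dexfenfluramine 5, and 815 CPM of MGP in Control 1. The others were 113 CPM of SVEP1 in Dexfenfluramine 2, 26.9 CPM of FBLN7 in Serotonin 2, 9.68 CPM of ATP6V1F in Dexfenfluramine 4 and 131 CPM of CPED1 in Dexfenfluramine 5. The values of IRS3 and TMEM116 in Dexfenfluramine 3 are alike because each is the same small number of reads. Among named genes that moved one way, 6 differed in size between the treatments: COL1A2 (adjusted p = 0.0406), FBLN7 (adjusted p = 0.0155), HSP90AB1 (adjusted p = 0.0186), CD164 (adjusted p = 0.0234), RPL24 (adjusted p = 0.0028) and LRRC17 (adjusted p = 0.0374).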

How the results depend on the processing

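Counts of pooled calls moved from 1552 to 652 at an adjusted p under 0.01, 313 with the treated valves as 1 group, 2761 without the serotonin group, 464 without pergolide and 449 without dexfenfluramine; fits without a group weigh 2 agents only. Leaving out 1 valve gave 982 to 1945. One-way genes moved from 290 to 157 at 0.01, 648 with Control 3 and Dexfenfluramine 3 both left out, and 0 by the largest of the 3 p-values; with 1 valve left out, 198 to 580. The 13 genes called in each treatment became 40 in DESeq2, 26 with svaseq, 7 with library sizes without the most abundant gene, 8 with no filter, 0 at 0.01 and 149 with both libraries out, and 0 to 73 with 1 valve out. Differences among the treatments went from 2518 to 1524 at 0.01, and from 2104 to 2626 with 1 valve out. Separated genes went from 23 to 156 with both libraries out, and from 24 to 153 with 1 valve out. Fewer valves are easier to separate, but fits of equal size differed: 153 without Control 3, and 35 to 47 without another Control valve. Beyond thresholds and numbers of valves, the cause was not tested. With the replicate number as a block there were 1362 pooled calls, 253 one-way genes, 0 genes called in each treatment and 2297 differences among treatments. Same-numbered valves did not deviate together on average (mean correlation -0.022, from -0.342 to 0.492). The correlation was over 0.1 in 6 of 30 pairs, and 5 of 20 valves correlated best with their own number. Correlations over all genes cannot exclude a batch shared by same-numbered valves, so whether the numbers pair the valves stays undecided. For the 95 named genes, 3005 of 3296 values kept direction and side of the threshold, 288 lost and 3 gained a call, and 0 reversed. Of 875 list medians 11 moved by more than the spread, and that of the smooth muscle markers changed sign in 1 setting. With 5 Control valves, 1 of them can decide a call, and genes with few reads per valve carry little precision at this depth.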
